A study of Arabidopsis thaliana with 4 samples.

Results

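Transcript levels of 45 genes of the core cell cycle were examined in the base of the Arabidopsis thaliana inflorescence stem. They were 8 B-type, 7 A-type and 10 D-type cyclins, the kinase gene CDKA;1 and 4 CDKB genes, 7 KRP genes with their relatives SIM and SMR1, the cytokinesis gene KNOLLE, WEE1, CDC20.1 and 3 E2F factors. They were taken by locus from a list of gene families that was drawn up with earlier results of these data known but applies no threshold to measured values, and all 45 were found among the 33316 loci of the deposited tables. RNA was compared between wild-type plants (WT, accession Col-0) and plants carrying mol1-1, a mutant allele of MOL1, a receptor-like kinase gene known to restrain thickening of the stem. Each genotype had 2 libraries. Plants of both genotypes had spent 3 weeks under 8 h of light a day and then went to 16 h of light so that they would flower. The tissue was 1 cm of stem just above the rosette, cut when plants were 15 to 20 cm tall, and their age in days and the number of plants in a sample were not given in the sources used here.

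Cyclins bind cyclin-dependent kinases (CDKs) and drive the cell from one phase of its cycle to the next. In Arabidopsis, D-type cyclins with CDKA act mainly at the entry into DNA synthesis, where they release E2F transcription factors from the retinoblastoma protein, while A- and B-type cyclins with CDKB act later, up to mitosis. KRP and SIAMESE-type proteins bind and inhibit these complexes, and SIM and SMR1 are known for turning dividing cells towards endoreduplication, the copying of DNA without division. At the base of the stem, division is known to be concentrated in the cambium, the layer that makes wood and bast and thickens the stem.

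The libraries held 30794836 and 28017346 exon reads in WT and 37059413 and 28570901 in mol1-1. MOL1 (AT5G51350) had 938 and 825 reads in WT against 342 and 264 in mol1-1 (log2 fold change -1.66, SE 0.12, adjusted p 0.0217, edgeR's quasi-likelihood test with Benjamini-Hochberg adjustment). Of 19024 genes tested in this comparison, 38 had an adjusted p of at most 0.05, which is 0.2% of them (0.189% higher and 0.0105% lower in mol1-1). Markers of the stem were present in all libraries. The cambium genes WOX4 and PXY summed to 138 and 144 RPKM (reads scaled to exon length and to library size) in WT and 134 and 151 RPKM in mol1-1, and CLV3, a gene of the shoot apical meristem, had 0 reads in every library. STM, another gene of that meristem, had 161 and 152 RPKM in WT and 136 and 176 RPKM in mol1-1. The 4 floral organ genes on the marker list had 55 and 3 reads in WT and 13 and 7 in mol1-1. As these are whole stem segments, fewer cells of a type and less RNA per cell cannot be told apart.

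Genes expressed around mitosis are known to carry a short promoter element, the mitosis-specific activator (MSA), which MYB3R transcription factors bind and whose core is AACGG. The 300 bases before the gene start are printed for 3 B-type cyclin genes, which carry it repeatedly, and for 2 inhibitor genes that differ in it. They come from the RefSeq genome and annotation of TAIR10.1 and are read along the strand of each gene. Capitals mark AACGG or, where the match lies on the other strand, CCGTT. The windows are chr4:17624309-17624608 on the minus strand for CYCB1;1, chr3:3627274-3627573 on the minus strand for CYCB1;3, chr2:7663755-7664054 on the plus strand for CYCB2;1, chr2:9978091-9978390 on the minus strand for KRP1 and chr3:3282132-3282431 on the minus strand for SMR1. None of these 5 windows overlaps an annotated exon.
CYCB1;1: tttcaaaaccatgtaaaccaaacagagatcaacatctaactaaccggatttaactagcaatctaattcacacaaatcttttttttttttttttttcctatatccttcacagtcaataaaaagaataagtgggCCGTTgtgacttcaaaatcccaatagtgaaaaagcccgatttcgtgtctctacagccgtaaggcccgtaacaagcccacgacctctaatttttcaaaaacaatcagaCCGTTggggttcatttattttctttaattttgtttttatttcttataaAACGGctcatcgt
CYCB1;3: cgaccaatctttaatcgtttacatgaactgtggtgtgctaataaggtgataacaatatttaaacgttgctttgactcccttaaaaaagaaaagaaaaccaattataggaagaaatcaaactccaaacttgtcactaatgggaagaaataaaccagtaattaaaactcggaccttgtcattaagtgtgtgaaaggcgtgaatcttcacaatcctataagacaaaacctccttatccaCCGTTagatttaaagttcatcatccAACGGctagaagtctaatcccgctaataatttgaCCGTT
CYCB2;1: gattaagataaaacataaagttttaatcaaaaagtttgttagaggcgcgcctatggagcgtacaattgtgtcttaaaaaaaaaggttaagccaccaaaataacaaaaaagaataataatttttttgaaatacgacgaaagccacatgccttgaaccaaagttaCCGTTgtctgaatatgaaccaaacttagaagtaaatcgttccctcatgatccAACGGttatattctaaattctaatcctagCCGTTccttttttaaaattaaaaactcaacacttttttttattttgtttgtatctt
KRP1: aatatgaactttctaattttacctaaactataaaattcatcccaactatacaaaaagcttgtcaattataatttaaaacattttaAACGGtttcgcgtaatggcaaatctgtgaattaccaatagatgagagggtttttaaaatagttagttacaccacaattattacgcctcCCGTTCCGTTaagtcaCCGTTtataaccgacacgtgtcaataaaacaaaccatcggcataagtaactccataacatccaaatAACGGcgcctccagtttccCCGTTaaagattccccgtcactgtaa
SMR1: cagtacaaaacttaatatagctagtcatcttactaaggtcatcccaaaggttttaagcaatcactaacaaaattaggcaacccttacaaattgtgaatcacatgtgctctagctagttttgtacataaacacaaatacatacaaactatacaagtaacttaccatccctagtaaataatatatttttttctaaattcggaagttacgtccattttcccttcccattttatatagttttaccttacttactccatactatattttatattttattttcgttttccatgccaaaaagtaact

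The core was more common before B-type cyclin genes than before D-type ones. Searched on both strands, it lay in the window of 7 of the 8 B-type cyclins, and 6 of them held it 2 or more times. Over all 27443 protein-coding genes with such a window, 23.4% held it and 4.53% held it 2 or more times. The A-type cyclins had it in 4 of 7 windows and the D-type cyclins in 1 of 10, that of CYCD3;1, whose window lies wholly in annotated exons. In all, 22 of the 45 genes held it, among them KNOLLE, WEE1 and CDC20.1, and 1 of the 4 CDKB genes, and the windows of CDKB1;1, CDKB2;1 and CDC20.1 overlapped annotated exons by 213, 194 and 104 bases. The inhibitor genes were divided, as the map of motif positions shows. KRP1 had 6 matches, KRP7 had 3, KRP2 had 2 and KRP3 and KRP4 had 1 each, while SMR1, SIM, KRP5 and KRP6 had none. Sites of the E2F type (TTTCCCGC, TTTCGCGC, TTTGCCGC and TTTGGCGC, both strands) were found before 1 of the 45 genes, CYCD3;3, against 1.57% of all genes, and no such site overlapped an MSA core. These matches are letters in a fixed window, and binding was not measured.

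**Figure D1:**
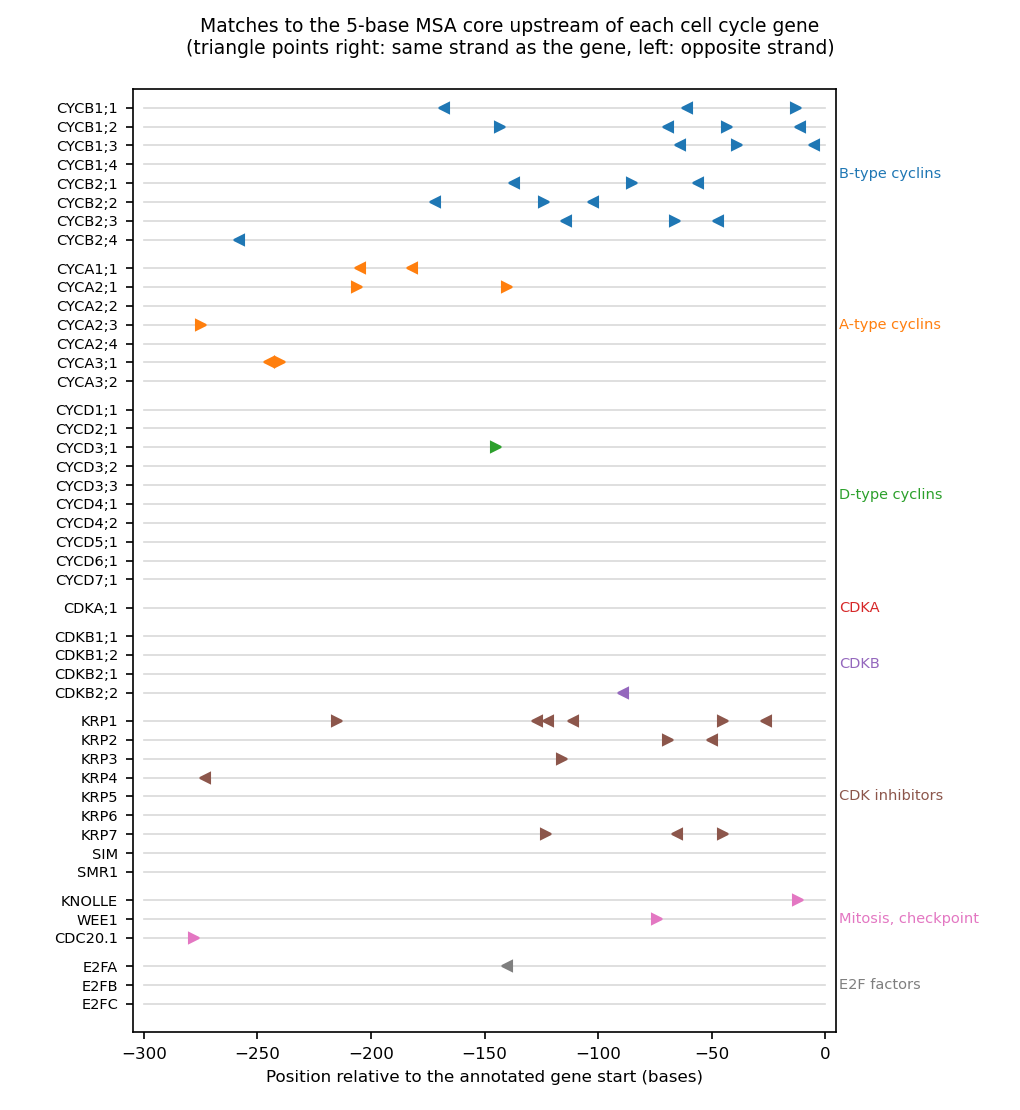
Matches to the MSA core in the 300 bases before each of the 45 genes, by class, with the position relative to the annotated gene start in bases on the horizontal axis and triangles pointing right for the gene's own strand. The B-type cyclins carry it in 7 of 8 windows and the D-type cyclins in 1 of 10.

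The levels of the genes spanned a wide range in the stem base, and the inhibitor genes KRP2 and SIM and the kinase gene CDKA;1 stood at the top. Deposited RPKM was at least 1 in every library for 38 of the 45 genes. CDKA;1, the main kinase of the cycle, had 67.1 and 65.2 RPKM in WT and 60.3 and 68.3 RPKM in mol1-1. KRP2, a CDK inhibitor, had 67.1 and 67.4 RPKM in WT and 62.0 and 82.6 in mol1-1, so its level was like that of the kinase gene. The summed RPKM of the 9 inhibitor genes was 196 ± 1.75 for WT (SD, n = 2) and 228 ± 26.5 for the mutant (SD, n = 2), and was above the sum of the 10 D-type cyclins in each library. That sum was 85.7 ± 6.53 for WT (SD, n = 2) and 84.2 ± 7.80 for the mutant (SD, n = 2).

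D-type cyclins were the most abundant cyclins. CYCD3;1, which is induced by cytokinin and promotes division, led them with 33.9 and 29.9 RPKM in WT and 28.4 and 34.9 in mol1-1. CYCD3;3, of the same small group and known to act in the cambium, followed with 15.2 and 14.4 RPKM in WT and 13.6 and 18.9 in mol1-1. The ranges of these genes over the 4 libraries did not overlap, whereas CYCD2;1, CYCD3;2 and CYCD1;1, with means of 11.0, 9.33 and 7.65 RPKM over the libraries, each overlapped the next. CYCD6;1, CYCD4;1 and CYCD5;1 lay between 2.38 and 3.57 RPKM. CYCD4;2 had 8 to 11 reads in a library. CYCD7;1, known from the stomatal lineage, had 4 and 0 reads in WT and 3 and 0 in mol1-1, and a count of 0 allows up to 3 reads by counting error alone.

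The listed mitotic genes other than KNOLLE were lower than CYCD3;1 and CYCD3;3. B-type cyclins ran from a mean of 0.475 RPKM for CYCB2;1 to 5.29 RPKM for CYCB1;2, and apart from CYCB2;1 each overlapped its neighbour in the order. Among the A-type cyclins, CYCA3;2, which is active around DNA synthesis, had the top mean of 8.07 RPKM, its range clear of CYCA1;1 at 4.63 RPKM, a cyclin of late phases, and CYCA2;1 the lowest at 0.382 RPKM. The kinase genes of mitosis were led by CDKB2;1, with 13.5 and 10.3 RPKM in WT and 8.45 and 10.4 in mol1-1. The level of CDKA;1 was 2.22 to 2.95 times that of the 4 CDKB genes together. KNOLLE, the syntaxin that builds the new cell plate, had 20.7 and 16.8 RPKM in WT and 13.2 and 20.4 in mol1-1, well above any B-type cyclin.

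The regulators of the cycle covered most of this range. Among the inhibitors SIM had 37.6 ± 0.212 RPKM (SD, n = 2) in WT, KRP6 27.5 ± 3.43, KRP4 20.5 ± 0.593 and KRP1 12.2 ± 3.55 (SD, n = 2 each), while KRP7, KRP5 and KRP3 had 4.24, 3.54 and 0.91 RPKM over the 4 libraries. KRP2 was therefore 62.6 to 90.5 times KRP3 in level. E2FC, described as a repressor of division, had 9.22 RPKM over the 4 libraries, above the activators E2FB with 3.45 and E2FA with 1.58, and no ranges of neighbours overlapped. CDC20.1, an activator of the complex that destroys mitotic cyclins, had 6.06 RPKM, and WEE1, a kinase of the DNA damage checkpoint, had 1.02 RPKM. Reads were all unique for 42 of the genes. CDC20.1, whose near copy CDC20.2 is the neighbouring locus, had 60.6% unique reads, CYCB2;3 76.9% and CYCB1;2 85.3%, so the division of reads between these genes and their copies is uncertain.

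**Figure D2:**
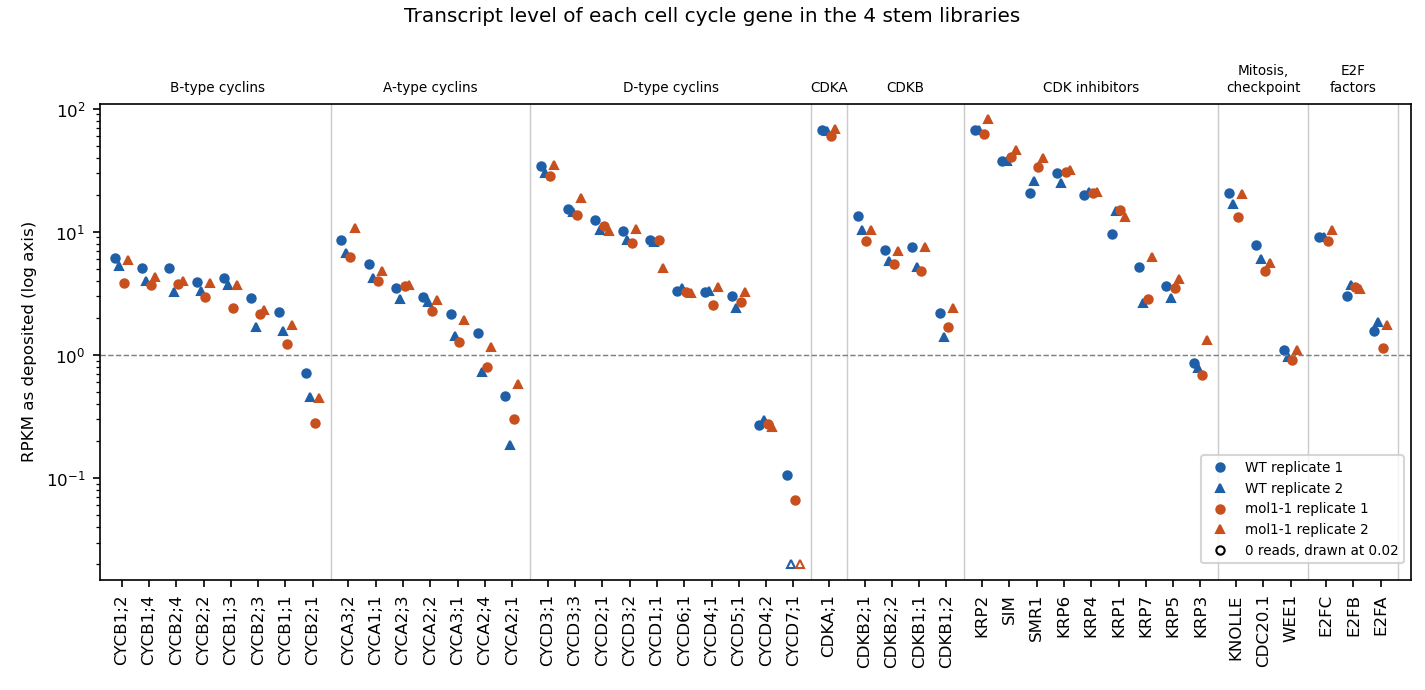
Deposited RPKM of each of the 45 genes in the 4 libraries on a log axis, ordered by mean within a class, with circles for replicate 1 and triangles for replicate 2. CDKA;1 and KRP2 lie near the top, most B-type cyclins lie between 1 and 10 RPKM, and the dashed line marks 1 RPKM.

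The comparison of genotypes asks which transcripts depend on MOL1, and no gene of the list passed it. Of the 45 genes, 43 had enough reads to be tested, all but CYCD4;2 and CYCD7;1, and 0 of them had an adjusted p of at most 0.05 in edgeR's quasi-likelihood test. Unadjusted p was under 0.05 for 1 of them, SMR1, against 5.94% of all tested genes, and DESeq2 and limma-voom also called 0. The log2 fold changes ran from -0.67 to 0.68, with a median of -0.01, the same as the median over all tested genes. The 95% interval lay within 1 log2 unit either side of 0 for 35 of the 43 genes, so for these a change by 1 unit or more lay outside it. The smallest log2 fold change called among all genes was 1.23 in size. Both mol1-1 libraries lay above both WT libraries in CPM (reads scaled to library size by TMM) for 5 of the 43, or 11.6%, against 16.9% of all tested genes, and below them for 4, or 9.3%, against 16.8%. Together 9 genes had groups that did not overlap, where 33.7% of all tested genes did.

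The inhibitor genes had log2 fold changes above 0, and SMR1 had the largest. SMR1 (AT3G10525, also LGO), known for the giant cells of the sepal epidermis, had 435 and 490 reads in WT and 841 and 776 in mol1-1. On the CPM scale this was 13.7 and 17.6 in WT and 23.4 and 27.0 in mol1-1, so that the lower mutant library was above the higher WT library. Its log2 fold change was 0.68 (SE 0.17, 95% interval 0.27 to 1.10), with an adjusted p of 0.4 by edgeR's quasi-likelihood test and of 0.158 by DESeq2. SIM (AT5G04470), the founding member of this inhibitor family, had 29.5 and 30.4 CPM in WT and 33.8 and 37.0 in mol1-1 (log2 fold change 0.24, SE 0.12, adjusted p 0.931), again without overlap. In RPKM, SMR1 was at 0.549 and 0.684 of the SIM level in WT and 0.817 and 0.86 of it in mol1-1.

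No KRP gene was as far from 0 as SMR1. KRP6 (AT3G19150) had 32.4 and 28.2 CPM in WT and 35.1 and 35.4 in mol1-1 (log2 fold change 0.22, SE 0.13, adjusted p 0.978), and its groups stood apart. KRP5 had 3.28 and 2.73 CPM against 3.36 and 3.86 (log2 fold change 0.26, SE 0.24), and its groups, apart in CPM, overlapped in RPKM. In KRP1, the inhibitor first cloned by its binding to cyclin and kinase, WT replicate 1 was the low library, at 9.09 CPM, while the second WT library had 14.3 and the mutant libraries 14.9 and 12.6 CPM. KRP2, KRP4, KRP3 and KRP7 had log2 fold changes of 0.13 (SE 0.16), 0.05 (SE 0.12), 0.30 (SE 0.43) and 0.23 (SE 0.47), with overlapping groups.

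All 9 inhibitor genes thus had a log2 fold change above 0, with a median of 0.24, where 47.8% of all tested genes did. The count was 7 without WT replicate 1, 8 without WT replicate 2, 9 without mol1-1 replicate 1 and 6 without mol1-1 replicate 2, when KRP2 was at -0.06. The highest of the 4 libraries was mol1-1 replicate 2 for 7 of the 9 genes, against 33.3% of all tested genes. In SMR1 the log2 fold change was 0.51 to 0.89 with a library left out. Epidermal markers also differed between the libraries, and in the other direction. ATML1, FDH and PDF2 summed to 72.8 and 73.1 RPKM in WT against 56.4 and 47.0 in mol1-1. Most of that sum was FDH, with a mean of 54.3 RPKM over the libraries against 3.68 for ATML1 and 4.32 for PDF2. ATML1 overlapped between genotypes, with 13.9 and 15.2 CPM in WT and 14.0 and 7.86 in mol1-1. FDH had 133 and 138 CPM in WT against 107 and 89.2 in mol1-1, and PDF2 15.5 and 16.1 against 13.4 and 9.25. FDH and PDF2 were without overlap, as were 33.7% of all tested genes. None of the 3 passed, and the part of the epidermis in the inhibitor values was not tested.

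**Figure D3:**
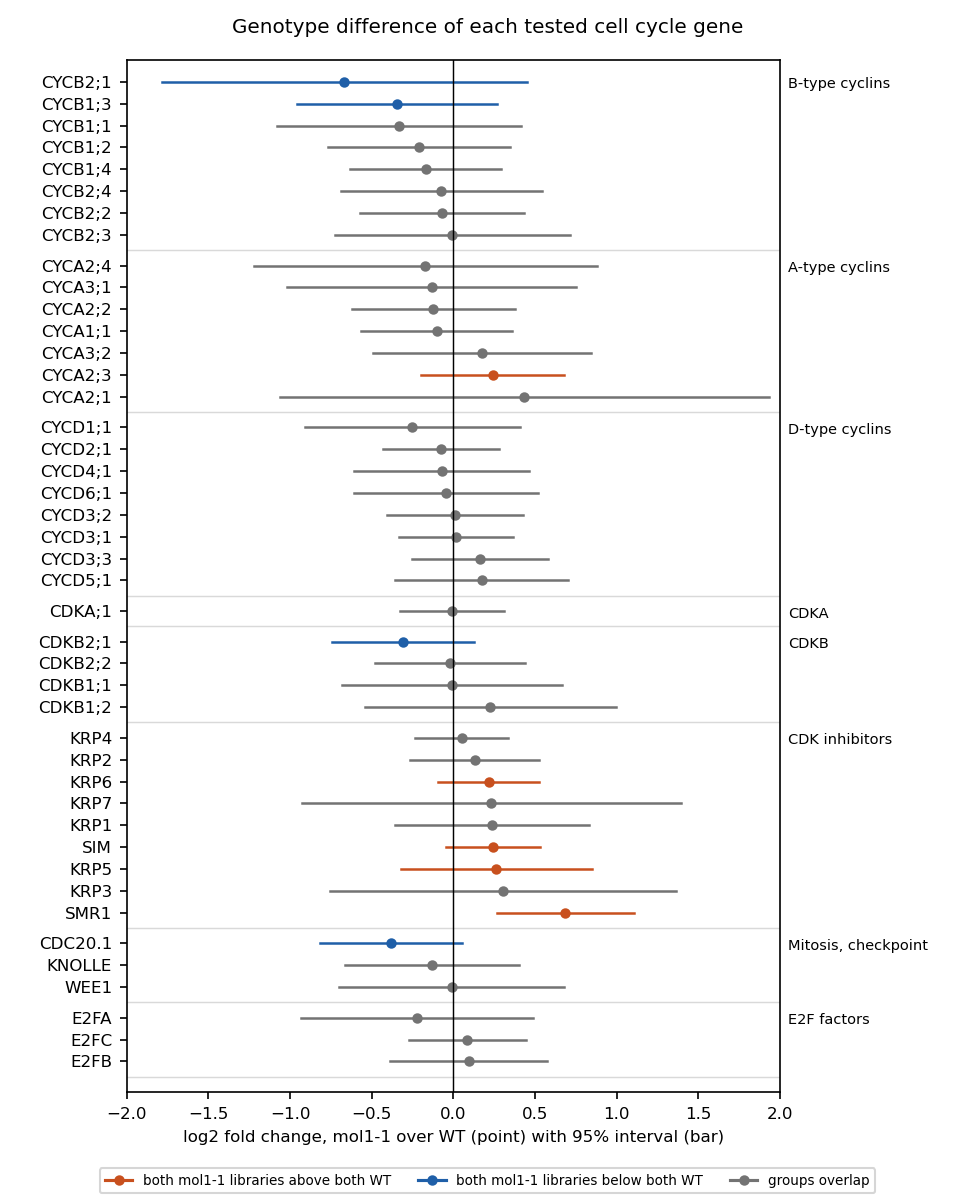
Log2 fold change of mol1-1 over WT for the 43 tested genes by class, with bars for the 95% interval and colours for genes whose libraries did not overlap between genotypes in CPM. SMR1, at 0.68, is the only gene whose interval excludes 0.

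The B-type cyclins had log2 fold changes below 0. All 8 were below 0, with a median of -0.19 and values from -0.67 to -0.01, where 52.2% of all tested genes were below 0. CYCB1;3 (AT3G11520) had 6.37 and 5.75 CPM in WT and 3.84 and 5.74 in mol1-1 (log2 fold change -0.35, SE 0.25, adjusted p 0.997), so the groups stood apart by the last digit and overlapped in RPKM. CYCB2;1 (AT2G17620), the lowest of the class, had 36 and 21 reads in WT and 17 and 21 in mol1-1 (-0.67, SE 0.45), and here too the gap in CPM was small, 0.755 against 0.730. CYCB1;1 (AT4G37490), the cyclin of the common reporter for dividing cells, had 3.57 and 2.59 CPM against 2.06 and 2.85 (-0.33, SE 0.30), with overlap. The most abundant of the class, CYCB1;2 (AT5G06150), had 10.3 and 9.06 CPM against 6.73 and 10.01 (-0.21, SE 0.23), and CYCB1;4 (AT2G26760) had 8.08 and 6.61 against 6.17 and 6.92 (-0.17, SE 0.19). These groups overlapped, and the other B2 genes were between -0.07 and -0.01. Without WT replicate 1, or without mol1-1 replicate 1, 5 of the 8 were below 0, with medians of -0.05 and -0.08, and all 8 remained below 0 without either of the other libraries.

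Among the other mitotic genes CDC20.1 and CDKB2;1 had groups that did not overlap in CPM, as did 33.7% of all tested genes. CDC20.1 (AT4G33270) had 13.8 and 10.8 CPM in WT and 8.90 and 9.98 in mol1-1 (log2 fold change -0.38, SE 0.18, adjusted p 0.908), and its groups stood apart in RPKM as well. CDKB2;1 (AT1G76540) had 17.9 and 14.2 CPM in WT and 11.8 and 14.1 in mol1-1 (-0.31, SE 0.18, adjusted p 0.978), a gap of the last digit that closes in RPKM. CDKB2;2, CDKB1;1 and CDKB1;2 had -0.02 (SE 0.19), -0.01 (SE 0.27) and 0.23 (SE 0.31). KNOLLE had 24.4 and 20.5 CPM against 16.5 and 24.5 (-0.13, SE 0.22), its lowest and its highest library both mutant, and WEE1 was at -0.01 (SE 0.28).

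**Figure D4:**
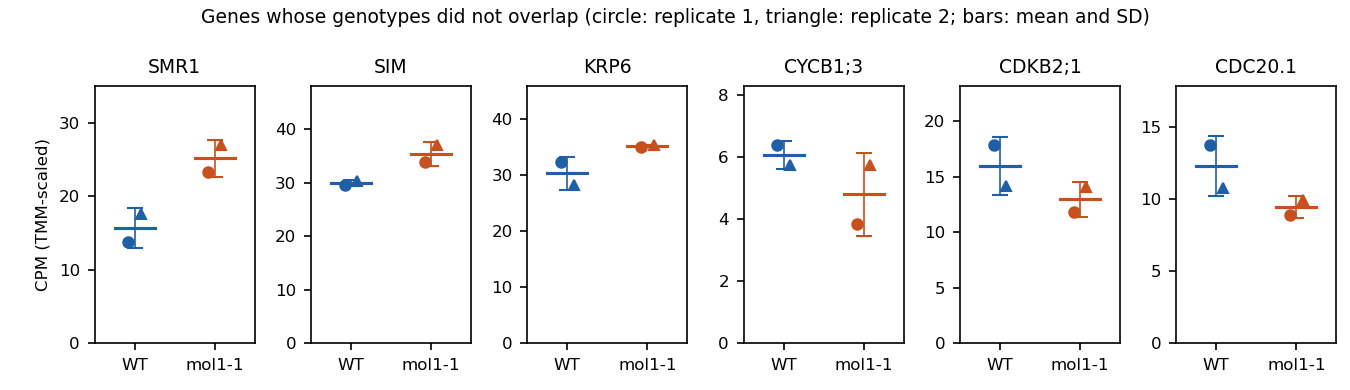
CPM of 6 of the listed genes whose genotypes did not overlap on this scale, with circles for replicate 1, triangles for replicate 2 and bars for the mean and SD of 2 libraries. KRP5, CYCA2;3 and CYCB2;1, also without overlap, are not drawn, and 33.7% of all tested genes had groups that did not overlap. SMR1 shows the widest gap between genotypes, and in CYCB1;3 and CDKB2;1 the nearest WT and mol1-1 libraries all but touch.

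D-type and A-type cyclins, CDKA;1 and the E2F genes lay on both sides of 0. The 8 tested D-type cyclins ran from -0.25 to 0.17 with a median of -0.02, and the 7 A-type cyclins from -0.17 to 0.43 with a median of -0.10, 4 of each class being below 0. CDKA;1 (AT3G48750) had 93.9 and 94.7 CPM in WT and 89.5 and 97.7 in mol1-1 (log2 fold change -0.01, SE 0.13, 95% interval -0.33 to 0.31), so its libraries overlapped. CYCD3;1 was at 0.02 (SE 0.14, interval -0.33 to 0.37) and CYCD3;3 at 0.16 (SE 0.17, interval -0.25 to 0.58). CYCD1;1 (AT1G70210) differed in 1 library, with 17.0 and 17.3 CPM in WT, 18.3 in mol1-1 replicate 1 and 10.4 in mol1-1 replicate 2. Without mol1-1 replicate 1 its log2 fold change was -0.73, in a fit that leaves 1 mutant library and so holds no spread between mutant libraries. The 2 A-type genes of highest level lay on either side of 0. CYCA3;2 (AT1G47210) had 12.7 and 10.2 CPM in WT and, with both its extremes in the mutant, 9.68 and 16.2 in mol1-1 (0.18, SE 0.27), and CYCA1;1 (AT1G44110) had 8.68 and 7.04 against 6.81 and 7.86 (-0.10, SE 0.19). CYCA2;3, a cyclin that restrains endoreduplication, was the A-type gene without overlap, with 6.47 and 5.53 CPM in WT against 7.20 and 6.99 in mol1-1 (0.24, SE 0.18). E2FC had 14.1 and 14.7 CPM in WT and 14.1 and 16.5 in mol1-1 (0.09, SE 0.14), with overlap, while E2FB was at 0.09 (SE 0.19) and E2FA at -0.22 (SE 0.29).

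The order of the libraries was shared within the B-type cyclins and the CDKB genes, but not by them alone. All 8 B-type cyclins and all 4 CDKB genes were higher in WT replicate 1 than in WT replicate 2 and lower in mol1-1 replicate 1 than in mol1-1 replicate 2. Over all tested genes 50.9% did the first, 50.7% the second and 32.8% both. The A-type cyclins did the first for 7 of 7 and the second for 6 of 7, the D-type cyclins each for 5 of 8, and the inhibitors for 4 and 7 of 9. KNOLLE, WEE1 and CDC20.1 each did both, while the E2F genes did the first for 0 and the second for 2 of 3. WT replicate 1 was the highest library for 8 of 8 B-type cyclins, against 24.7% of all tested genes, and mol1-1 replicate 1 the lowest for 6, against 24.6%. WT replicate 2 was the lowest for the other 2, against 19.8%. The 8 genes summed to 30.4 and 23.2 RPKM in WT and 20.3 and 26.2 RPKM in mol1-1, so each genotype held a higher and a lower library. Among the 9 further genes of mitosis and cytokinesis on the pathway list, 7 were higher in WT replicate 1 than in WT replicate 2 and 6 were lower in mol1-1 replicate 1 than in mol1-1 replicate 2. Of the 13 DNA replication genes, 10 did the first and 13 the second. Over all 51 tested pathway genes, 34 did the first and 33 the second. This pattern was chosen for description after the values were seen, and it was not tested.

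The distance between replicates varied by class. The median difference between the WT libraries was 0.37 log2 units for B-type cyclins, 0.41 for CDKB genes and 0.32 for A-type cyclins, but 0.13 for D-type cyclins and 0.15 for all tested genes. Between the mol1-1 libraries it was 0.38, 0.36, 0.45, 0.28 and 0.24 in the same order. These distances were not matched for read count, which ran from 7 to 22 in a library for CYCA2;1 and from 1402 to 1760 for CYCD3;1. Low counts vary more in log2 units by counting error alone, and the part of this in the class differences was not tested. The secondary wall genes IRX1, IRX3 and IRX5, markers of xylem, were lower in the library of each genotype in which the B-type cyclins were higher, summing to 1861 and 2456 RPKM in WT and 2500 and 1477 RPKM in mol1-1. Floral organ genes had 55 and 3 reads in WT and 13 and 7 in mol1-1, the order of the B-type cyclins in WT alone. The leaf genes RBCS1A and CAB1 summed to 5985 and 5701 RPKM in WT and 5404 and 8860 RPKM in mol1-1. This was the order of the B-type cyclins in both genotypes. The phloem gene SUC2, with 140 and 183 RPKM in WT and 178 and 143 in mol1-1, had the order of the xylem genes. APL, also of phloem, had 10.1 and 8.00 RPKM against 8.06 and 8.46, and STM 161 and 152 against 136 and 176. APL and STM both had the order of the B-type cyclins. The cambium gene WOX4 had 27.1 and 26.9 RPKM in WT against 22.2 and 32.0 in mol1-1, also that order. In CPM its WT libraries, at 28.9 and 29.8, had the opposite order. PXY had 111 and 117 RPKM against 111 and 119, that order in mol1-1 alone. The epidermal genes ATML1, FDH and PDF2 summed to 72.8 and 73.1 RPKM in WT and 56.4 and 47.0 in mol1-1. Their sum had the order of the xylem genes, by a small gap in WT. The part of these tissues in the values of the B-type cyclins was not tested.

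**Figure D5:**
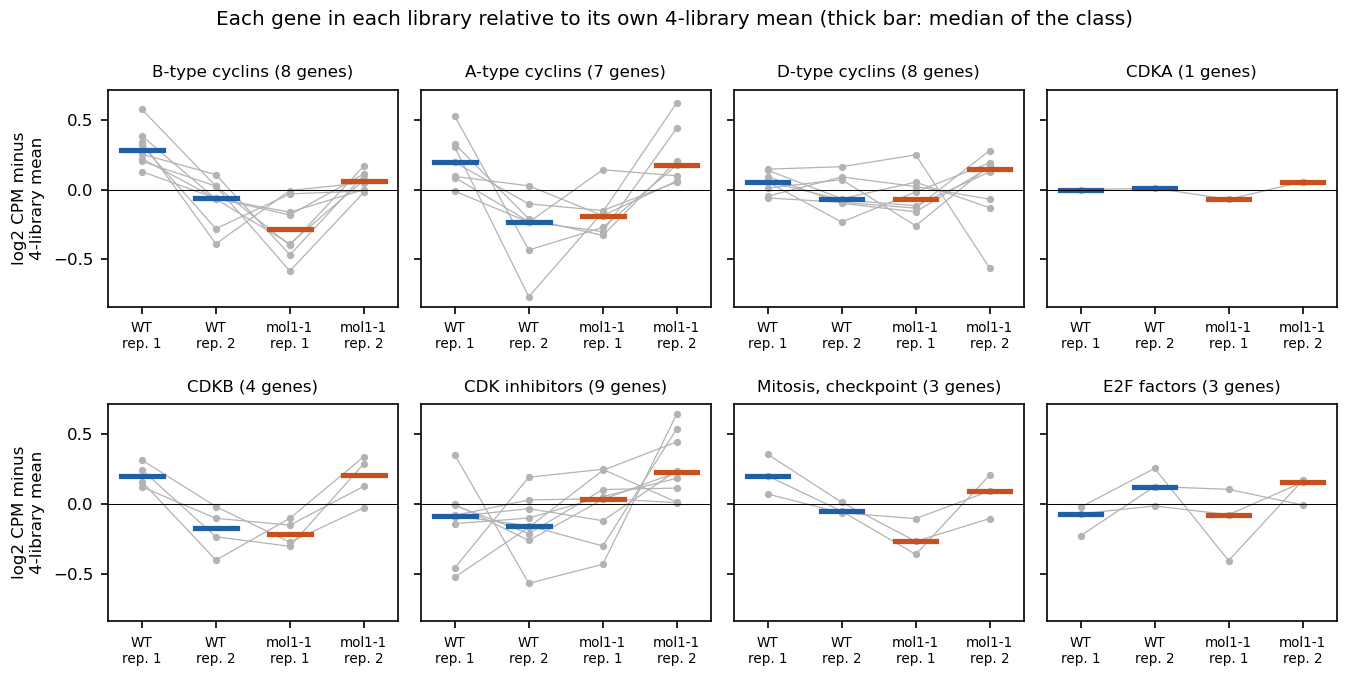
Log2 CPM of each tested gene in each library minus its mean over the 4 libraries, by class, with grey lines for genes and thick bars for the class median. The B-type cyclin median is 0.29 in WT replicate 1 and -0.28 in mol1-1 replicate 1, and the inhibitor median is highest, at 0.23, in mol1-1 replicate 2.

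Other genes of the cell cycle machinery also gave no call. Of 52 such genes, 51 were tested and 0 passed edgeR's quasi-likelihood test, where 0.2% of all tested genes passed. Unadjusted p was under 0.05 for 2 of the 51, against 5.94% of all tested genes, and the list had a median log2 fold change of -0.02. The 13 genes of DNA replication had a median of 0.21, with 12 above 0 and the highest value in mol1-1 replicate 2 for 12. Over all tested genes 47.8% were above 0, 52.2% were below 0 and 33.3% were highest in mol1-1 replicate 2. The 9 genes of mitosis and cytokinesis had a median of -0.18, with 8 below 0, and the 6 tested SMR genes a median of 0.19, with 4 above 0. Below 0 were SMR2, at -0.10 (SE 0.23), and SMR8, at -0.38 (SE 0.21). SMR8 had 5.84 and 4.74 CPM in WT against 4.28 and 3.86 in mol1-1, without overlap, as for 33.7% of all tested genes. The smallest p-values belonged to SMR3 (9.69 and 10.8 CPM in WT, 13.7 and 13.6 in mol1-1, log2 fold change 0.41, SE 0.14, adjusted p 0.667), a relative of SMR1, and to PANS1, a protector of chromatid cohesion (3.16 and 2.62 CPM against 1.59 and 1.95, -0.71, SE 0.28, adjusted p 0.808). CDC6, which loads the replication helicase, was at 0.66 (SE 0.32, adjusted p 0.932), and CDKD;1, a CDK-activating kinase, at -0.65 (SE 0.34, adjusted p 0.944).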

How the data were processed

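RNA was selected for poly(A) before library preparation, per the labels' protocols. The authors deposited read counts per locus and RPKM values, and per the file headers the counts are total and unique reads in exons and in genes. The genome build is TAIR10, per the submitters' processing notes. The sources used here do not name the aligner, the counter or the use of strand, so reads of a gene and of one overlapping it on the other strand cannot be separated. The deposited RPKM equals exon reads divided by exon length and by the sum of gene reads, to within a relative difference of 2.18e-14. RPKM was used to compare genes, and total exon reads for tests.

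The 5 rows without a locus (0.0586% to 0.0864% of exon reads) were left out and 2 repeated loci summed. Tests used edgeR 4.0.16 in R 4.3.3 with filterByExpr, TMM and the quasi-likelihood test over 19024 genes, and Benjamini-Hochberg adjustment at 0.05. The SE is the log2 fold change over the root of F, and intervals are 95%. CPM values are TMM-scaled, and log2 CPM has a prior count of 2. Replicates differed by more than sampling noise (chi-square per degree of freedom 28.9 in WT and 62.3 in mol1-1). Nothing says whether they came from separate plants, so p-values measure the spread between these libraries. The scripts were tested on simulated data. Alternatives were DESeq2 1.42.0, limma-voom 3.58.1, other scalings, filters and read columns, a replicate block and each library left out. Leaving a library out leaves its genotype with a single library, so such a fit holds no spread within that genotype.

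The genes and lists were chosen by family and role, with earlier results of these data known. The genes described with tests are the 12 genes with the smallest p, the 2 with the highest RPKM in each class, CDKA;1, MOL1 and 4 pathway genes. Further genes are named by class, after their values were seen.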

Additional observations from a re-analysis of the deposited data

How the results depend on the processing

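No listed gene and no other cell cycle gene was called in any of the 16 fits, while the count over all genes was 38, and 141 with no filter on low counts, 290 with DESeq2, and 37, 89, 409 and 212 without WT replicate 1, WT replicate 2, mol1-1 replicate 1 and mol1-1 replicate 2. Labels number the replicates of both genotypes 1 and 2 and do not say that equal numbers belong together, while names inside the deposited tables number the mol1-1 libraries 2 and 3, so any pairing is uncertain. With the labels' numbers, same-numbered libraries deviated with a correlation of -0.238 across genes. A replicate block gave 136 genes over all and a crossed replicate block, chosen after seeing the data, 248, and neither called a listed gene. With 1 library left out, the median log2 fold change of the list ran from -0.11 to 0.10, that of B-type cyclins from -0.39 to -0.05 with 5 to 8 genes below 0, and that of inhibitors from 0.16 to 0.32 with 6 to 9 above 0. The latter 2 medians and counts were added after seeing the data. Of 28 named genes, 16 kept their direction in each alternative that tested them. The other 12 changed sign when 1 library was left out, with the lowest and highest values being -0.061 and 0.62 for KRP1, -0.057 and 0.35 for CYCD3;3, -0.52 and 0.040 for CYCB1;2, -0.24 and 0.49 for CYCA3;2, -0.23 and 0.051 for CYCA1;1, -0.11 and 0.12 for CYCD3;1, -0.17 and 0.10 for CDKB2;2, -0.059 and 0.29 for KRP2, -0.44 and 0.12 for KNOLLE, -0.035 and 0.19 for E2FC, -0.081 and 0.30 for E2FB, and -0.075 and 0.040 for CDKA;1. CYCD3;1 was also at -0.015 with no scaling. The median difference between replicates over the listed genes was 0.25 log2 units (0.19 over all genes), and 0.30 with upper-quartile scaling, 0.30 with no scaling and 0.24 with a filter at 1 CPM in 2 libraries. The cause of these shifts was not tested. CYCB2;1 could not be fitted under that filter. Genes at 1 RPKM or more in every library numbered 38, against 41 at 0.5 and 33 at 2 RPKM. At 28017346 exon reads or more per library, CYCD4;2 and CYCD7;1 were too low to test.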
